A study of Mus musculus with 12 samples.

Results

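Activating Fc receptors and the phagocyte oxidase form the arm of innate immunity by which macrophages, monocytes and neutrophils recognise antibody-coated material and destroy it. The 10 genes described here are Fcgr1, Fcgr3 and Fcgr4 (activating receptors for IgG), Fcer1g and Tyrobp (signalling adapters), Trem2 (a lipid-sensing macrophage receptor that signals through Tyrobp), and Cybb, Cyba, Ncf1 and Ncf4 (subunits of the oxidase). They were taken by symbol from probe sets that carry a single gene symbol, with the brightest probe set over all arrays standing for each gene. They are 10 of 18193 genes with such a probe set, and all 10 were among the 12755 genes bright enough to be tested.

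Liver RNA of 12 BALB/c mice was hybridised to 12 oligonucleotide arrays, 1 mouse per array and 3 per group. TGFB KO mice lacked transforming growth factor beta 1 (TGF-β1-/-), an anti-inflammatory cytokine, and WT mice were the controls with Ifng intact. IFNko TGFB1 KO mice lacked both TGF-β1 and interferon gamma (TGF-β1-/-/IFN-γ-/-), and INFko TGFB+ mice, spelled as in the submitters' labels, carried TGF-β1 on the interferon gamma knockout background. The knockouts were in the whole animal, so effects in the liver and effects that reach it from elsewhere cannot be told apart. The series design calls the controls TGF-β1+/+ littermates. The labels give neither age nor sex. The questions are how these genes responded to loss of TGF-β1, and whether that response differed with the interferon gamma background.

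The values are signal, the linear brightness of a probe set after the authors' scaling, which put the trimmed mean of every array at 150.001. IFNko TGFB1 KO 1 stood apart from the other arrays, with a median signal of 61.3 against 33.8 to 42.6. Without it, the 9 genes called in IFNko TGFB1 KO against INFko TGFB+ livers had log2 fold changes between 1.66 and 3.21 and were all called. Tgfb1 signal was 71.2, 87.6 and 45.5 in TGFB KO livers, against 391, 455 and 110.0 in WT livers, and 24.9, 52.1 and 43.8 in IFNko TGFB1 KO livers, against 221, 164 and 180.2 in INFko TGFB+ livers. Its log2 fold change was -1.82 ± 0.43 (SE; adjusted p = 0.01052) without the interferon gamma knockout and -2.04 ± 0.43 (adjusted p = 0.005561) on that background. Ifng signal was 85.9, 94.3 and 202 in TGFB KO livers, against 23.3, 25.9 and 5.95 in WT livers. It was 83.9, 54.3 and 44.6 in the livers labelled IFNko TGFB1 KO, against 7.56, 1.07 and 7.45 in INFko TGFB+ livers, a log2 fold change of 1.63 ± 0.30 (adjusted p = 0.002426). The labels do not say which part of Ifng was deleted or whether its probes lie there. This signal therefore does not check the knockout, and the groups are called by their labels.

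Fc gamma receptors bind the constant part of IgG. The activating ones have no signalling tail of their own and pass the signal through Fcer1g, whose immunoreceptor tyrosine-based activation motif (ITAM) recruits the kinase Syk; Tyrobp does the same for Trem2 and related receptors. Syk signalling leads to phagocytosis and to assembly of the oxidase, in which Cybb (gp91phox) and Cyba (p22phox) form the membrane core and Ncf1 (p47phox) and Ncf4 (p40phox) join from the cytosol to make superoxide. In the liver these genes are known mainly from Kupffer cells and from monocytes and neutrophils that enter inflamed tissue, and interferon gamma is a known inducer of several of them.

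Of the 10 genes, 9 rose in TGFB KO livers against WT livers, and the same 9 rose in IFNko TGFB1 KO livers against INFko TGFB+ livers; Trem2 passed neither test. Fold changes ran between 4.14 for Ncf1 and 25.8 for Fcgr4 with interferon gamma intact, and between 2.79 for Ncf1 and 8.67 for Cyba on the interferon gamma knockout background. Across all genes tested, 12.2% were called higher in the first comparison and 12.7% in the second (limma, Benjamini-Hochberg adjusted p under 0.05). The members' median log2 fold changes were 2.99 and 2.41, against -0.06 and -0.01 over all genes. Fold changes and tests are on quantile-normalized log2(signal + 16), while signals are as deposited. In each of the 9 genes every TGF-β1-deficient liver lay above every control liver of its background; 18.4% and 22.2% of all genes did so in these comparisons.

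**Figure D1:**
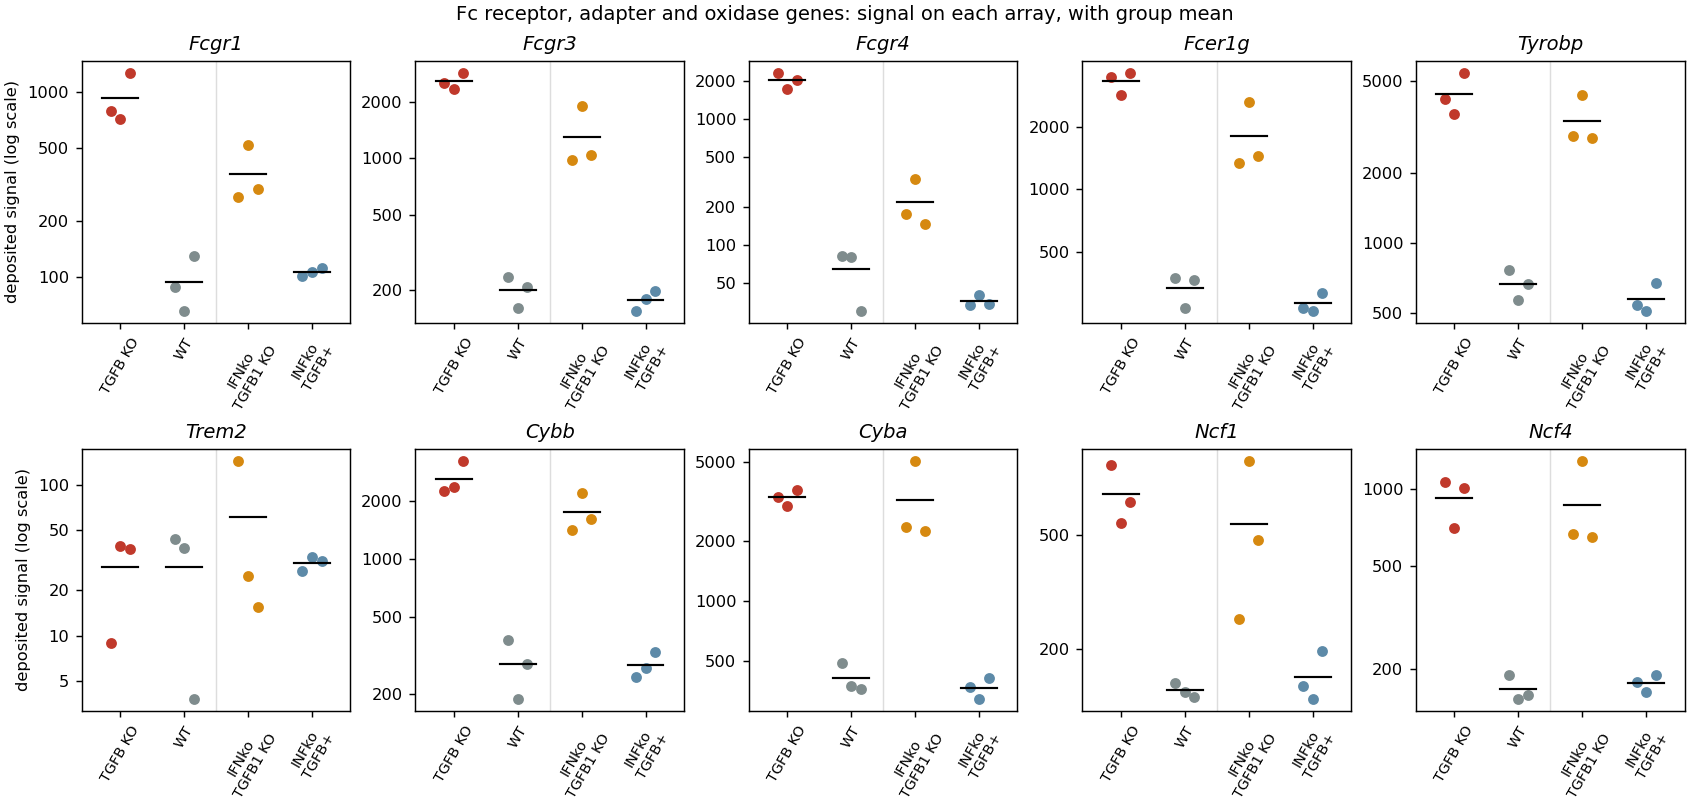
Deposited signal of the 10 genes (log scale, arbitrary units) on each of the 12 arrays, by group, with 3 points and a bar at the group mean. The groups lacking TGF-β1 (TGFB KO and IFNko TGFB1 KO) lie above their controls in every panel but that of Trem2, and Fcgr4 shows the widest gap between them, at means of 2049 in TGFB KO and 219 in IFNko TGFB1 KO livers.

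Fcgr1 encodes the high-affinity IgG receptor. Its signal was 786, 712 and 1263 in TGFB KO livers, against 88.6, 65.9 and 129 in WT livers, and 271, 516 and 299 in IFNko TGFB1 KO livers, against 102, 107 and 112 in INFko TGFB+ livers. Group means were ordered TGFB KO (920 ± 299, SD, n = 3), IFNko TGFB1 KO (362 ± 134), INFko TGFB+ (107 ± 5.18) and WT (94.6 ± 32.2), and only the lowest pair overlapped. The log2 fold change was 3.00 ± 0.29 (SE; adjusted p = 3.019e-05) in TGFB KO against WT livers and 1.50 ± 0.29 (adjusted p = 0.003271) in IFNko TGFB1 KO against INFko TGFB+ livers. The remaining Fcgr1 probe set gave smaller values of 1.64 (adjusted p = 0.00129) and 0.88 (adjusted p = 0.03528), and averaging both gave 2.32 for TGFB KO against WT livers.

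Fcgr3, the low-affinity receptor for IgG immune complexes, reached 2498, 2344 and 2835 in TGFB KO livers, against 236, 161 and 208 in WT livers. It reached 981, 1888 and 1042 in IFNko TGFB1 KO livers, against 156, 180 and 198 in INFko TGFB+ livers. Both controls overlapped, and the IFNko TGFB1 KO livers lay between them and the TGFB KO livers without overlap on either side. Fold changes were 11.6 (log2 3.53 ± 0.25, adjusted p = 4.231e-06) in TGFB KO against WT livers and 6.81 (log2 2.77 ± 0.25, adjusted p = 3.289e-05) in IFNko TGFB1 KO against INFko TGFB+ livers.

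Fcgr4, which in the mouse binds IgG2a and IgG2b, had the largest fold change of the 10 genes in TGFB KO livers. Its signal was 2332, 1746 and 2069 there, against 82.1, 81.1 and 30.2 in WT livers. On the interferon gamma knockout background it was 177, 333 and 147 in IFNko TGFB1 KO livers, against 33.5, 40.1 and 34.3 in INFko TGFB+ livers. Every IFNko TGFB1 KO liver was thus above both controls and below every TGFB KO liver, while the controls overlapped. The log2 fold change was 4.69 ± 0.33 (adjusted p = 4.231e-06, 25.8-fold) in TGFB KO against WT livers and 1.94 ± 0.33 (adjusted p = 0.001551, 3.83-fold) in IFNko TGFB1 KO against INFko TGFB+ livers. Because the control signal is close to the 16 added before the log, these folds depend on it: with 64 added, the log2 values were 4.02 and 1.34.

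Fcgr2b, the inhibitory IgG receptor that works against the activating ones, had 1444, 1426 and 1485 in TGFB KO livers, against 1378, 1182 and 1018 in WT livers. On the probe set used, the 3 TGFB KO livers were above the WT livers, but the log2 fold change of 0.32 ± 0.18 (95% interval -0.08 to 0.72) missed the threshold (adjusted p = 0.2447). In IFNko TGFB1 KO livers its signal was 1679, 2116 and 1582, against 1048, 974 and 928 in INFko TGFB+ livers, and it rose by 1.02 ± 0.18 (adjusted p = 0.002222). The difference of these effects, 0.70 ± 0.26, was not called (adjusted p = 0.3085). Other tested Fcgr2b probe sets gave 0.365, 0.15 and 0.22 in TGFB KO against WT livers, none called. Signals of these groups overlapped where the value was 0.15 or 0.22. On the same probe sets, the rise in IFNko TGFB1 KO against INFko TGFB+ livers was 0.86, 0.99 and 1.02, all called. Fcgr2b, Fcgr4 and Fcgr3 lie between positions 170960558 and 171065915 of chromosome 1 in RefSeq's annotation, and Fcer1g starts at 171229572.

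Promoter windows of Fcgr1 and Fcgr4 are shown because these genes, as given further on, were the only members lower in IFNko TGFB1 KO than in TGFB KO livers by the test. Each is RefSeq sequence of GRCm38.p6 covering 250 bases before to 50 bases after the annotated start, 5′ to 3′ on the gene's strand. Capitals mark matches, on either strand, to the gamma-activated site palindrome (GAS, TTCNNNGAA), the core of the interferon-stimulated response element (ISRE, GAAANNGAAA) or the core of the PU.1 site (GAGGAA). Of 32851 mouse promoter windows of this length, 8.3% hold the first, 3.44% the second and 28.3% the third.
Fcgr1: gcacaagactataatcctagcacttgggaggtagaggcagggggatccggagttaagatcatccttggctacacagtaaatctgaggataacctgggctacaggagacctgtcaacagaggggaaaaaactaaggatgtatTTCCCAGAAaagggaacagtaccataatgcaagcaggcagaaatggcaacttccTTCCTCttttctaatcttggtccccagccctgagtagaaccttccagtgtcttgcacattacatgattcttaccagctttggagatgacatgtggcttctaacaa
Fcgr4: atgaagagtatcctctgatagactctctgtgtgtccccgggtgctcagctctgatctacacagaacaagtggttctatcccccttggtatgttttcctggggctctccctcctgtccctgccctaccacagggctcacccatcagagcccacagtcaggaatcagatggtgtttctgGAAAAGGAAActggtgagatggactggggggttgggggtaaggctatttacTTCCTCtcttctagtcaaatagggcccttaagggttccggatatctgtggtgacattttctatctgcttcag
The Fcgr1 window lies at chr3:96293920-96294219 on the minus strand and holds a GAS match from -109 to -101 of the start and a PU.1 core on its opposite strand from -55 to -50. The Fcgr4 window lies at chr1:171018676-171018975 on the plus strand and holds an ISRE core from -73 to -64 and a PU.1 core on its opposite strand from -22 to -17. The windows of Fcgr3 and Trem2 matched only the PU.1 core, and those of Fcer1g and Cyba matched none of these letters. A match describes the sequence and is not evidence of binding. Windows were used for 8 of the 10 genes; Tyrobp and Ncf4 had none.

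Fcer1g, the adapter that the 3 activating receptors need for surface expression and signalling, had 3457, 2833 and 3614 in TGFB KO livers, against 378, 270.2 and 369 in WT livers. It had 1342, 2638 and 1441 in IFNko TGFB1 KO livers, against 271, 263 and 320 in INFko TGFB+ livers. The controls overlapped, and each group lacking TGF-β1 was clear of them. The rises were 9.36-fold (log2 3.23 ± 0.25, adjusted p = 7.876e-06) in TGFB KO against WT livers and 6.28-fold (log2 2.65 ± 0.25, adjusted p = 5.702e-05) in IFNko TGFB1 KO against INFko TGFB+ livers.

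Tyrobp (DAP12), the ITAM adapter of Trem2 and of many activating lectin receptors rose on both backgrounds. Its signal was 4204, 3603 and 5430 in TGFB KO livers, against 766, 567 and 664 in WT livers. It was 2907, 4354 and 2848 in IFNko TGFB1 KO livers, against 542, 511 and 673 in INFko TGFB+ livers, and both pairs of like TGF-β1 status overlapped. The log2 fold changes were 2.69 ± 0.21 (adjusted p = 7.876e-06) and 2.68 ± 0.21 (adjusted p = 1.785e-05), and their difference was -0.01 with a 95% interval of -0.67 to 0.65.

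Trem2 was dim on the probe set used. Its signal was 8.97, 39.7 and 37.4 in TGFB KO livers, against 43.9, 38.0 and 3.83 in WT livers. It was 144, 24.8 and 15.6 in IFNko TGFB1 KO livers, against 26.7, 33.3 and 31.5 in INFko TGFB+ livers. All groups overlapped, and the single high value came from IFNko TGFB1 KO 1. The log2 fold changes of 0.15 ± 0.54 (95% interval -1.04 to 1.33, adjusted p = 0.8836) and 0.22 ± 0.54 (interval -0.97 to 1.40, adjusted p = 0.8059) leave room for a sizeable change either way; without IFNko TGFB1 KO 1 the second was -0.41.

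A second Trem2 probe set, too dim to pass the filter, gave a different pattern. Its signal was 7.38, 13.1 and 12.7 in TGFB KO livers, against 4.43, 3.10 and 4.20 in WT livers, and 70.0, 106.3 and 11.2 in IFNko TGFB1 KO livers, against 3.33, 2.09 and 3.71 in INFko TGFB+ livers. Both groups lacking TGF-β1 lay above their controls without overlap, at levels near the dim end of the arrays. Tested with no filter, a choice made after its values were seen, it was called higher in IFNko TGFB1 KO against INFko TGFB+ livers (log2 1.53 ± 0.38, adjusted p = 0.02698) and not in TGFB KO against WT livers (0.47 ± 0.38, adjusted p = 0.5599). The difference of these effects was not called either (1.06, adjusted p = 0.6653).

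**Figure D2:**
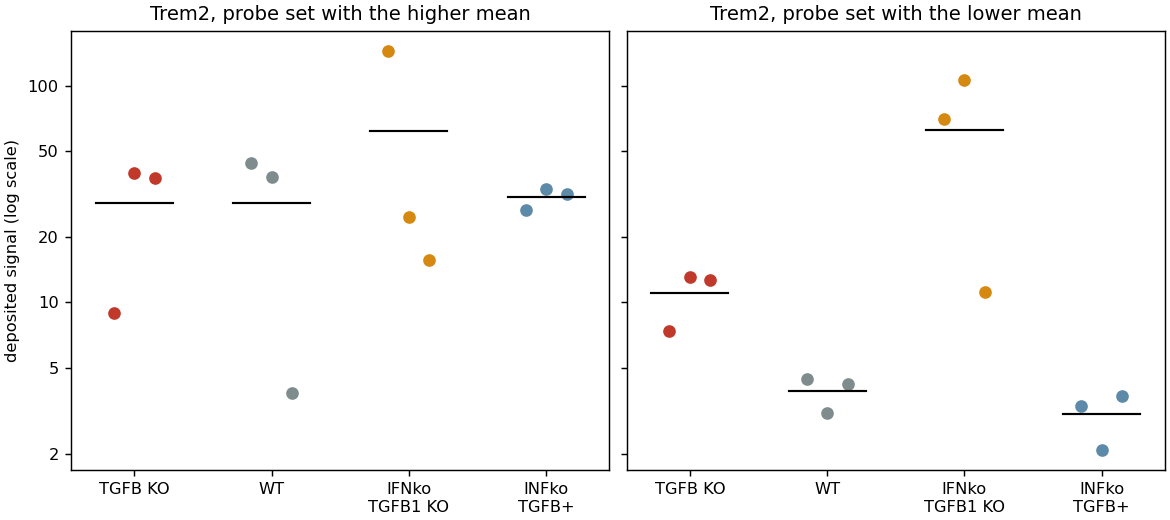
Deposited signal (log scale, arbitrary units) of both Trem2 probe sets on the 12 arrays by group, with bars at group means. The probe set used overlaps across all groups, while the dimmer one averages 62.5 in IFNko TGFB1 KO livers against 3.04 in INFko TGFB+ livers.

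Genes for Trem2 ligands and genes that Trem2-positive macrophages are known to express were counted beside it. Of 15 tested, 10 were higher and 2 lower in TGFB KO against WT livers (median log2 fold change 1.19), and 12 were higher and 1 lower in IFNko TGFB1 KO against INFko TGFB+ livers (median 1.41). Their summed signal overlapped in the first comparison, at 65880 to 74150 in TGFB KO and 66100 to 70620 in WT livers. It lay at 71810 to 77860 in IFNko TGFB1 KO and 58340 to 69590 in INFko TGFB+ livers. The brightest genes weigh most in such a sum, so it can overlap although most genes of the list rose. Lgals3, encoding galectin 3, rose by 4.73 ± 0.23 (adjusted p = 7.006e-07) in the first comparison and 4.47 ± 0.23 (adjusted p = 9.337e-07) in the second. Mmp12, a macrophage elastase, rose by 4.69 ± 0.41 and 3.90 ± 0.41, Itgax, the CD11c integrin, by 1.19 ± 0.26 and 1.94 ± 0.26, and Ms4a7 by 1.51 ± 0.30 and 2.60 ± 0.30. The lower genes were Lpl, encoding lipoprotein lipase, in both comparisons (-0.91 and -0.50) and the fatty acid binding protein gene Fabp5 in the first (-0.92).

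Cybb, the catalytic subunit of the oxidase, had 2252, 2381 and 3234 in TGFB KO livers, against 384, 189 and 288 in WT livers. It had 1419, 2210 and 1622 in IFNko TGFB1 KO livers, against 247, 272 and 332 in INFko TGFB+ livers. The groups lacking TGF-β1 were clear of the controls, and the 3 IFNko TGFB1 KO livers were all below the 3 TGFB KO livers in deposited signal by a small margin. The log2 fold changes were 3.14 ± 0.26 (adjusted p = 1.052e-05) and 2.65 ± 0.26 (adjusted p = 6.007e-05). The other Cybb probe sets gave 2.80 and 3.09 in TGFB KO against WT livers, and 2.42 and 2.25 in IFNko TGFB1 KO against INFko TGFB+ livers, all called.

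Cyba, the partner that stabilises Cybb in the membrane, had 3324, 2993 and 3621 in TGFB KO livers, against 491, 373 and 363 in WT livers. It had 2365, 5037 and 2242 in IFNko TGFB1 KO livers, against 372, 323 and 409 in INFko TGFB+ livers. The highest value of the 12 was thus in an IFNko TGFB1 KO liver, and the means of the groups lacking TGF-β1 were close, at 3214 ± 1580 in IFNko TGFB1 KO livers and 3313 ± 314 in TGFB KO livers (SD, n = 3). The log2 fold changes were 2.98 ± 0.28 (adjusted p = 2.466e-05) and 3.12 ± 0.28 (adjusted p = 3.468e-05).

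Ncf1, the organiser subunit, had the smallest rises among the 9 genes called. Its signal was 879, 552 and 654 in TGFB KO livers, against 152, 141 and 136 in WT livers, and 255, 908 and 479 in IFNko TGFB1 KO livers, against 148, 134 and 197 in INFko TGFB+ livers. The log2 fold changes were 2.05 ± 0.37 (adjusted p = 0.002073) and 1.48 ± 0.37 (adjusted p = 0.01176); fitted on the compared groups alone, the second was not called (adjusted p = 0.05623). Both other Ncf1 probe sets were called in each comparison, with log2 fold changes of 1.26 and 1.77 in TGFB KO against WT livers and 1.33 and 1.54 in IFNko TGFB1 KO against INFko TGFB+ livers.

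Ncf4, the subunit that binds phagosome membranes, had 1057, 706 and 1003 in TGFB KO livers, against 189, 153 and 158 in WT livers. It had 665, 1279 and 652 in IFNko TGFB1 KO livers, against 178, 162 and 189 in INFko TGFB+ livers. Its rises were 4.86-fold (log2 2.28 ± 0.26, adjusted p = 0.0001066) and 4.49-fold (log2 2.17 ± 0.26, adjusted p = 0.0002308), with overlap between the groups lacking TGF-β1 and between the controls.

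**Figure D3:**
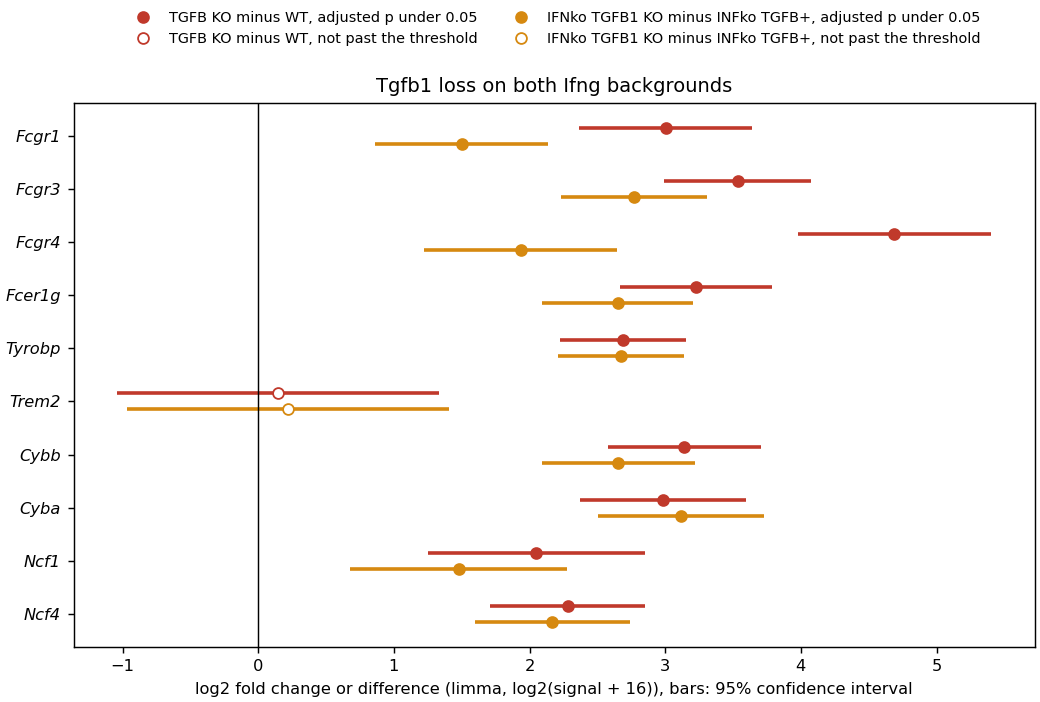
Log2 fold change of each of the 10 genes, with 95% intervals, in TGFB KO against WT livers and in IFNko TGFB1 KO against INFko TGFB+ livers. The intervals of 9 genes lie above 0 in both comparisons, and Trem2 spans 0 in both.

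The promoter windows of Cybb and Ncf1 are shown beside those of Fcgr1 and Fcgr4 because they hold matches to the same interferon-related letters, while neither gene was called lower in IFNko TGFB1 KO than in TGFB KO livers. Capitals mark the same motifs.
Cybb: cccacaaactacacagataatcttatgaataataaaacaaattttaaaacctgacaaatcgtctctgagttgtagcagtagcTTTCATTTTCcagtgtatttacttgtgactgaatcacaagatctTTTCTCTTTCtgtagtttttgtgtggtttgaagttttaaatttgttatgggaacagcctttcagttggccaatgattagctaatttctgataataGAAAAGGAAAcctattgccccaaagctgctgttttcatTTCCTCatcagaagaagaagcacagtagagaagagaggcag
Ncf1: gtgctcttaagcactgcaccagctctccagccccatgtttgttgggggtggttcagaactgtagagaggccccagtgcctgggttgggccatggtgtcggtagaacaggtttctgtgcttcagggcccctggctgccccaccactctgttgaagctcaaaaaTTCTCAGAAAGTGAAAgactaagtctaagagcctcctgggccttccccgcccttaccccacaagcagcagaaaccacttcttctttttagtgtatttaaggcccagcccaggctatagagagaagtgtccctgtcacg
The Cybb window, chrX:9469275-9469574 on the minus strand, holds 3 ISRE cores: on its opposite strand from -168 to -159 and from -124 to -115, and on its own strand from -29 to -20. It also holds a PU.1 core on its opposite strand from 10 to 15. The Ncf1 window, chr5:134229576-134229875 on the minus strand, holds a GAS match from -88 to -80 that overlaps an ISRE core from -82 to -73, printed as 1 run of capitals.

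Whether the response to TGF-β1 loss depended on interferon gamma was tested as the difference of both effects, and Fcgr4 alone among the 10 genes passed. Its effect was smaller by 2.75 ± 0.46 on the log2 scale on the interferon gamma knockout background (-2.75, 95% interval -3.76 to -1.75, adjusted p = 0.01741). Of all genes tested, 0.627% were called with a smaller effect and 0.243% with a larger one. The call for Fcgr4 was lost with a pseudocount of 1 (-2.73, adjusted p = 0.07765) and without TGFB KO 1 (-2.65, adjusted p = 0.05739), INFko TGFB+ 2 (-2.69, adjusted p = 0.06289) or INFko TGFB+ 3 (-2.77, adjusted p = 0.05188), with the direction kept in each.

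For Fcgr1 the difference of effects was -1.50 ± 0.41 (95% interval -2.40 to -0.60), which missed the adjusted threshold (adjusted p = 0.151). For Fcgr3 it was -0.77 (adjusted p = 0.4216), for Fcer1g -0.58 (adjusted p = 0.582), for Ncf1 -0.57 (adjusted p = 0.731) and for Cybb -0.49 (adjusted p = 0.6613). The differences of the other four genes lay nearer 0, at 0.13 for Cyba (interval -0.73 to 1.00), -0.12 for Ncf4, -0.01 for Tyrobp and 0.07 for Trem2. The remaining Fcgr1 probe set gave -0.76 (adjusted p = 0.5417). The other Cybb probe sets gave -0.38 (adjusted p = 0.8493) and -0.84 (adjusted p = 0.7373), not called either. On the probe sets used, the values thus ran from Fcgr4 and Fcgr1 at one end to Tyrobp, Cyba and Ncf4 at the other. Without IFNko TGFB1 KO 1, the array that stood apart, the difference was -2.63 for Fcgr4 (adjusted p = 0.04122) and -1.35 for Fcgr1, both still the farthest from 0. Without that array it was -0.56 for Trem2, the opposite sign, -0.13 for Ncf1, and between -0.65 and 0.22 for the remaining genes, none called. A gene that missed the threshold is not thereby shown to respond alike on both backgrounds.

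The direct comparison of the groups lacking TGF-β1 shares its arrays with the difference of effects. Fcgr4 was lower in IFNko TGFB1 KO than in TGFB KO livers by 3.27 ± 0.33 on the log2 scale (-3.27, adjusted p = 0.000169), and Fcgr1 by 1.32 ± 0.29 (-1.32, adjusted p = 0.02469). These 2 of 10 genes were called lower and none higher, against 2.82% and 2.54% of all genes. Fcgr3 (-0.92 ± 0.25, adjusted p = 0.05304) and Fcer1g (-0.81 ± 0.25, adjusted p = 0.09874) missed the threshold. These 2 genes, with Fcgr1 and Fcgr4, were lower in every IFNko TGFB1 KO liver than in any TGFB KO liver on the tested scale, as were 9.93% of all genes. The remaining values were -0.47 for Cybb, -0.46 for Ncf1, -0.22 for Tyrobp, -0.04 for Ncf4, -0.02 for Cyba and 0.40 for Trem2, none called. Without IFNko TGFB1 KO 1, Trem2 was at -0.23, Ncf1 at -0.02, Ncf4 at 0.06 and Cyba at 0.07. The other Cybb probe sets gave -1.54 (adjusted p = 0.1324) and -0.30 (adjusted p = 0.7139), neither called. The remaining Fcgr1 probe set was not called lower (-0.59, adjusted p = 0.28), with signals of 191.7, 122.0 and 79.9 in IFNko TGFB1 KO livers against 163.0, 174.7 and 227 in TGFB KO livers, which overlap.

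Mouse 1 was highest for 9 of the 10 genes among WT livers, and mouse 3 for 8 among INFko TGFB+ livers. Among TGFB KO livers, mouse 3 was highest for 6. Within the IFNko TGFB1 KO group, mouse 2 had the highest signal for 9 of the 10 genes, all but Trem2. The share of all genes that were highest in each mouse was not counted. Leaving out IFNko TGFB1 KO 2 changed calls between the groups lacking TGF-β1. Without it, Fcgr3 (-1.23, adjusted p = 0.004958) and Fcer1g (-1.13, adjusted p = 0.00797) were called lower too, making 4 genes. Fcgr1 was not called without IFNko TGFB1 KO 1 (-1.16, adjusted p = 0.08208) or 3 (-1.21, adjusted p = 0.06252), or without TGFB KO 1 (-1.41, adjusted p = 0.05818) or 3 (-1.06, adjusted p = 0.07183). It was also not called when only these groups were fitted (adjusted p = 0.1137). Fcgr4 was called in each of these cases.

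**Figure D4:**
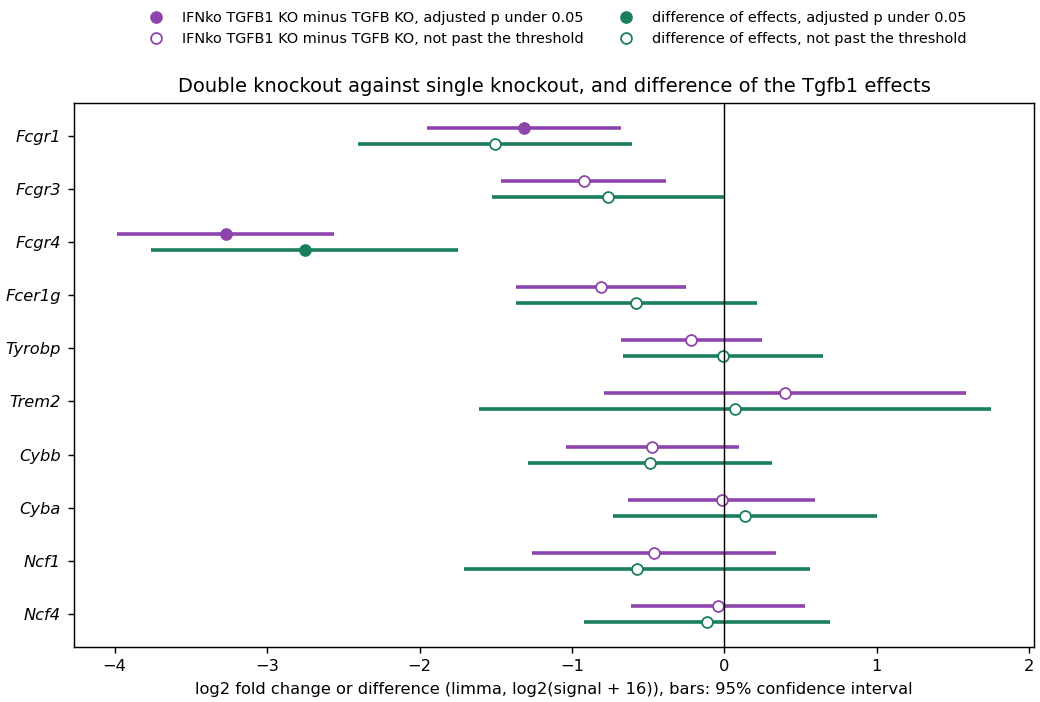
Difference of the TGF-β1 effects between backgrounds, and log2 difference of IFNko TGFB1 KO minus TGFB KO livers, for the 10 genes with 95% intervals. On the probe sets used, Fcgr4 lies farthest below 0 in both (-2.75 and -3.27), followed by Fcgr1 (-1.50 and -1.32), while Tyrobp, Cyba and Ncf4 lie near 0.

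With TGF-β1 present, the interferon gamma knockout made no detectable difference to the 10 genes. None was called in INFko TGFB+ against WT livers by limma, none had an unadjusted p under 0.05, and the log2 fold changes lay between -0.52 for Fcgr4 (adjusted p = 0.9102) and 0.33 for Trem2. No gene of the 12755 was called in this comparison (0.0%).

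Whole liver RNA was measured, so more cells of a type and more RNA per cell cannot be told apart. All 15 tested Kupffer cell and macrophage markers rose in TGFB KO against WT livers (median log2 fold change 2.20), and all 15 rose in IFNko TGFB1 KO against INFko TGFB+ livers (median 2.05). Their summed signal ranged 50010 to 53860 in TGFB KO and 8568 to 10960 in WT livers, and 35180 to 49780 in IFNko TGFB1 KO and 8633 to 8850 in INFko TGFB+ livers. Among them Adgre1 (F4/80) rose by 1.92 and 1.81, Csf1r by 2.12 and 1.87, and the Kupffer cell lectin Clec4f by 1.54 and 1.04. None of the 15 was called in the difference of effects or in IFNko TGFB1 KO against TGFB KO livers, where their median was -0.42, beside a median of -0.47 for the 10 genes. These markers thus rose over the controls on both backgrounds, as the 9 genes did. In IFNko TGFB1 KO against TGFB KO livers, Fcgr4 (-3.27) and Fcgr1 (-1.32) were called lower. The other members, like the markers, were not called there. The part of the markers in the result was not tested.

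Markers of other leukocytes also moved. Of 8 monocyte markers, 6 were higher and 1, Cx3cr1, lower in TGFB KO against WT livers and 7 were higher in IFNko TGFB1 KO against INFko TGFB+ livers; of 10 neutrophil markers, 6 were higher in each. Their sums ranged 9574 to 12400 in TGFB KO and 1724 to 2285 in WT livers for monocytes, and 22440 to 34930 in TGFB KO and 6753 to 14060 in WT livers for neutrophils. The same sums were 9313 to 14950 in IFNko TGFB1 KO and 1745 to 2112 in INFko TGFB+ livers for monocytes, and 20080 to 54070 in IFNko TGFB1 KO and 9558 to 15650 in INFko TGFB+ livers for neutrophils. In IFNko TGFB1 KO 2, the liver highest for 9 of the genes, the monocyte sum was 14950 against 9313 and 10440 in its group, the neutrophil sum 54070 against 20080 and 34700, and the macrophage sum 49780 against 35180 and 38270. The NK cell, T cell, B cell, and mast cell and basophil marker sums were also highest of the group in that liver, at 4563, 3675, 3478 and 821. Its dendritic cell sum (240.4) lay between those of the other mice, and its hepatocyte sum (93340) was the lowest of the group. The neutrophil calprotectin gene S100a8 rose by 1.74 and 1.84.

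NK cells are known to carry Fcgr3 and Tyrobp. Of 5 NK cell markers, 4 rose in TGFB KO against WT livers and 5 in IFNko TGFB1 KO against INFko TGFB+ livers. Their sums were 1676 to 1944 in TGFB KO, 236.6 to 278 in WT, 1944 to 4563 in IFNko TGFB1 KO and 232.2 to 253.7 in INFko TGFB+ livers. In the groups lacking TGF-β1 most of the sum was Gzma, which averaged 1407 in TGFB KO and 2242 in IFNko TGFB1 KO livers. Ncr1, a defining NK receptor, was too dim to be tested. Of 10 T cell markers, 9 and 10 rose in these comparisons, and 5 (Cd2, Cd3d, Cd3g, Cd5 and Cd8b1) were higher in IFNko TGFB1 KO than in TGFB KO livers, opposite to Fcgr4 and Fcgr1; Cd3g was also called in the difference of effects (2.01, adjusted p = 0.04152). The T cell sums ranged 2287 to 3675 in IFNko TGFB1 KO livers and 855 to 1036 in TGFB KO livers. The NK cell marker Klrd1 (1.22, adjusted p = 0.01001) and the B cell markers Blnk (1.11, adjusted p = 0.01475) and Cd79b (1.33, adjusted p = 0.03503) were also higher in IFNko TGFB1 KO than in TGFB KO livers. B cell markers gave 0 and 1 (Cd22) rises of 7, mast cell and basophil markers 1 (Kit) and 1 (Mcpt8) of 4, and dendritic cell markers 0 and 0 of 2. Of 9 hepatocyte markers none passed in TGFB KO against WT livers and 2 (Cps1 and Hnf4a) were lower in IFNko TGFB1 KO against INFko TGFB+ livers. Their sums ranged 119800 to 149400 in TGFB KO and 153300 to 160000 in WT livers, and 93340 to 141400 in IFNko TGFB1 KO and 132600 to 164200 in INFko TGFB+ livers. The part of these cell types in the results was not tested.

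Signalling genes downstream of the receptors were counted next. Of 15 tested ITAM adapters and downstream signalling genes, 10 rose in TGFB KO against WT livers (median log2 fold change 1.57) and 14 in IFNko TGFB1 KO against INFko TGFB+ livers (median 1.63), with none lower. Lcp2 (SLP-76), a scaffold downstream of Syk, rose by 2.75 ± 0.20 in each; Vav1, a Rac exchange factor, rose by 2.19 ± 0.31 and 1.95 ± 0.31. Lat and Cd247, which T cells also express, rose by 2.19 ± 0.38 and 2.67 ± 0.38, and by 1.60 ± 0.20 and 1.40 ± 0.20. Of these 15 genes, 1 was called in IFNko TGFB1 KO against TGFB KO livers, namely Zap70, a T cell and NK cell kinase, which was higher (1.12, adjusted p = 0.009911).

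Of 15 tested genes that restrain ITAM signalling, 11 rose in TGFB KO against WT livers (median 1.85) and 12 in IFNko TGFB1 KO against INFko TGFB+ livers (median 1.65). The phosphatase gene Ptpn6 (SHP-1) rose by 1.88 ± 0.16 and 1.18 ± 0.16, and the inhibitory receptors Pilra by 1.85 ± 0.17 and 1.98 ± 0.17 and Cd300a by 2.21 ± 0.22 and 2.04 ± 0.22. The collagen receptor Lair1 rose by 2.63 ± 0.20 and 1.35 ± 0.20, and was lower in IFNko TGFB1 KO than in TGFB KO livers (-1.31, adjusted p = 0.003773), as was the sialic acid receptor gene Siglece (-2.29, adjusted p = 0.004358).

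Of 12 other receptors that pair with Fcer1g or Tyrobp, 9 rose in TGFB KO against WT livers (median 1.98) and 7 in IFNko TGFB1 KO against INFko TGFB+ livers (median 1.15). The lectin genes Clec4e (Mincle) and Clec4n (Dectin-2), whose products signal through Fcer1g, went opposite ways between the groups lacking TGF-β1. Clec4e averaged 126.9 in IFNko TGFB1 KO and 291.3 in TGFB KO livers (-1.24, adjusted p = 0.03811), and Clec4n averaged 1099 in IFNko TGFB1 KO and 561.9 in TGFB KO livers (1.09, adjusted p = 0.04513). Treml4 was lower in IFNko TGFB1 KO livers (-0.90, adjusted p = 0.02123), while Cd300lb rose by 2.58 ± 0.28 and 2.41 ± 0.28 over the controls of each background.

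Of 8 other Fc receptors tested, 1 rose in each comparison, Pigr in TGFB KO against WT livers and Fcgr2b in IFNko TGFB1 KO against INFko TGFB+ livers (medians 0.22 and 0.23). Over all genes tested, 12.2% and 12.7% were called higher in these comparisons. Pigr encodes the epithelial carrier of polymeric immunoglobulin and is no phagocyte receptor. It averaged 2036 ± 414 in TGFB KO, 149.9 ± 47.3 in WT, 137 ± 41.1 in IFNko TGFB1 KO and 116.2 ± 35.1 in INFko TGFB+ livers (SD, n = 3). Its rise of 3.59 ± 0.28 with interferon gamma intact (adjusted p = 7.876e-06) compared with 0.07 ± 0.28 on the knockout background (adjusted p = 0.8866), and the difference was called (-3.52, adjusted p = 0.002039).

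Of 10 other oxidase subunits and regulators, 5 rose in TGFB KO against WT livers (median 0.74) and 4 in IFNko TGFB1 KO against INFko TGFB+ livers (median 0.59). Rac2, the GTPase of the assembled oxidase, rose by 2.29 ± 0.27 and 2.79 ± 0.27, Arhgdib, which holds Rac in the cytosol, by 2.24 ± 0.27 and 2.68 ± 0.27, Rap1b by 1.21 ± 0.17 and 1.46 ± 0.17, and Prkcb by 0.93 ± 0.25 and 1.64 ± 0.25. Cybc1, a chaperone of the membrane core, rose in TGFB KO against WT livers (0.89, adjusted p = 0.04376). Nox4, a non-phagocyte oxidase, was too dim to be tested. None of the 10 was called in the difference of effects or in IFNko TGFB1 KO against TGFB KO livers.

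Oxidant defence genes and other oxidant sources moved both ways: 5 of 16 rose and 4 fell in TGFB KO against WT livers, and 4 rose and 3 fell in IFNko TGFB1 KO against INFko TGFB+ livers. Of all 12755 genes tested, 1553 and 1619 were called higher and 1524 and 1673 lower in these comparisons. The neutrophil peroxidase gene Mpo rose by 1.84 and 2.11, Gpx3 by 2.81 and 1.75 and Txnrd1 by 0.54 and 0.52. The glutathione synthesis genes Gclc (-1.53 and -1.97) and Gclm (-1.16 and -1.35) fell on both backgrounds, and Nqo1 in TGFB KO against WT livers (-1.09). Hmox1, encoding the haem-degrading oxygenase, rose by 3.41 ± 0.32 and 2.47 ± 0.32, and the catalase gene Cat changed by -1.06 and -1.83 (adjusted p = 0.03633 and 0.002218). Xdh, encoding xanthine oxidoreductase, a superoxide source outside the phagocyte oxidase, rose by 2.83 ± 0.24 in TGFB KO against WT livers and not detectably in IFNko TGFB1 KO against INFko TGFB+ livers (0.58 ± 0.24, adjusted p = 0.1071). That difference was called (-2.25, adjusted p = 0.01118).

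Among 12 transcription factors of phagocyte genes, 7 rose and 1 fell in TGFB KO against WT livers, and 5 (Cebpb, Irf8, Mitf, Spi1 and Tfec) rose and 1 fell in IFNko TGFB1 KO against INFko TGFB+ livers. The gene that fell was Cebpa, abundant in hepatocytes, in both (-1.18 and -1.60). Spi1 (PU.1), whose core motif was searched for in the promoter windows, rose by 2.68 ± 0.26 and 2.43 ± 0.26, with a difference of -0.25 that was not called (adjusted p = 0.8504). Irf8 rose by 3.43 ± 0.21 and 1.48 ± 0.21 and Irf1 by 2.08 ± 0.21 and, not called, 0.23 ± 0.21. Both were called in the difference of effects, at -1.95 (adjusted p = 0.009617) and -1.85 (adjusted p = 0.01567), the same sign as Fcgr4.

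**Figure D5:**
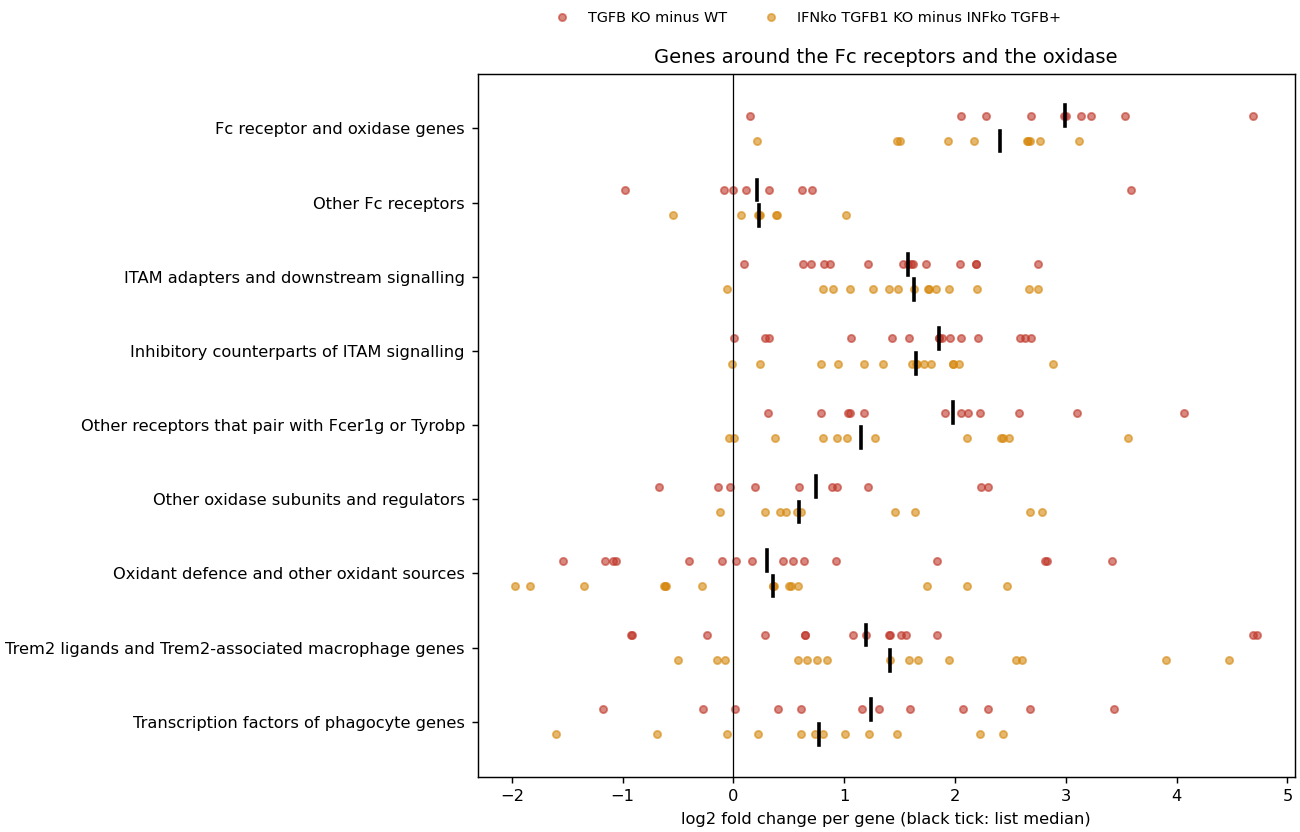
Tested genes of each pathway list with their log2 fold changes in TGFB KO against WT livers and in IFNko TGFB1 KO against INFko TGFB+ livers, with the list medians. ITAM signalling genes and their inhibitory counterparts lie mostly above 0 on both backgrounds, with medians between 1.57 and 1.85, while other Fc receptors centre near 0.22.

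The genes closest in pattern were found by the mean absolute difference of centred log2 levels over the 12 arrays. Closest to the mean of the 10 genes were Plac8 (0.09), Vim (0.13), C1qb (0.13), Evl (0.13), Cd68 (0.14), Ccl24 (0.17), C1qa (0.18) and Ctss (0.18), against a median of 1.24 over all other genes. Of the members, Tyrobp lay nearest to that mean (0.20), and Fcgr4 (0.91) and Trem2 (1.27) lay farthest. Fcgr4 was closest to the MHC class II genes H2-Aa (0.17) and H2-Ea (0.27). H2-Aa rose by 4.73 ± 0.31 in TGFB KO against WT livers and 2.02 ± 0.31 in IFNko TGFB1 KO against INFko TGFB+ livers, with a difference of -2.71 (adjusted p = 0.01567). Because H2-Aa was picked for its likeness to Fcgr4 on these same arrays, its values had to resemble those of Fcgr4. Fcgr1 was closest to Mefv (0.20) and Lair1 (0.23), Fcgr3 to Srgn (0.16) and Slc15a3 (0.18), and Fcer1g to Ctss (0.16) and Spi1 (0.19). Tyrobp was closest to Lcp2 (0.12) and C1qa (0.12), Cybb to Ctss (0.15) and Lcp2 (0.21), and Cyba to Cd52 (0.15) and Itgb2 (0.18). Ncf4 was closest to Cd300a (0.14) and Rab8b (0.15), Ncf1 to Clic1 (0.21) and Rab8b (0.22), and Trem2 to P2ry4 (0.25) and Gnl2 (0.28).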

How the data were processed

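Per the labels, Trizol was used for the RNA, and labelling was one-cycle with biotin. The deposited values are signal intensity per probe set on a linear scale; the signal algorithm is not given in the sources used here. The deposited values themselves show that each array had been scaled to the same mean after trimming 2% at each end. Array medians of log2(signal + 16) differed by 0.634, over a limit of 0.5, so quantile normalization was applied after adding 16 and taking log2. Of 45101 probe sets, 34958 carry a single symbol in the platform annotation, 932 several and 9211 none; 64 controls were left out.

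Probe sets with a mean under the 40th percentile (5.25) were left out, and the brightest remaining probe set of a gene was used, giving 12755 genes. Groups came from the titles, and the unnumbered INFko TGFB+ array took the left-over number 1. A mean per group was fitted to the 12 arrays in R 4.3.3 with limma 3.58.1 (lmFit, eBayes, 8 residual and 3.44 prior degrees of freedom). P-values are two-sided and were adjusted by Benjamini-Hochberg over the genes tested, with a threshold of 0.05. Further probe sets of a member or of Fcgr2b that passed the filter were tested among 27000. The second Trem2 probe set was tested with no filter among 45037. A value after ± is an SE for log2 fold changes and an SD for signal, and log2 values understate changes of dim genes. The 3 mice per group limit the precision, as does the number of arrays.

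The members, gene lists and tests were chosen with earlier results of these data known. Genes named are the members, up to 4 of each list with the smallest p in a comparison, a fixed set of oxidase, regulator and marker genes, and the nearest genes by likeness; list genes behind a count of 5 or fewer are also named, chosen after their values were seen. Promoter sequences are RefSeq's, GRCm38.p6. Alternatives changed the scaling, pseudocount, filter, probe set rule, variance model, arrays fitted, replicate block and single arrays left out. The procedure was tested on simulated data. A planned comparison of the members' proteins was not run.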

Additional observations from a re-analysis of the deposited data

Results flagged for a closer look

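The effect of TGF-β1 loss on Fcgr4 differed between the interferon gamma backgrounds by the test of that difference, at -2.75 on the log2 scale (adjusted p = 0.01741). Mean signals were 2049 in TGFB KO and 64.5 in WT livers, and 219 in IFNko TGFB1 KO and 35.9 in INFko TGFB+ livers. The second Trem2 probe set, outside the main measurement because it is dim, averaged 62.5 in IFNko TGFB1 KO livers against 3.04 in INFko TGFB+ livers, with 106.3 and 70.0 in mice 2 and 1 and 11.2 in mouse 3.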

How the results depend on the processing

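The counts of 9 genes higher in TGFB KO against WT livers and 9 in IFNko TGFB1 KO against INFko TGFB+ livers were obtained under every alternative except the fit on only the compared groups, which gave 8 in the second by losing Ncf1. Leaving out single arrays gave 0 to 1 gene for the difference of effects and 1 to 4 for IFNko TGFB1 KO against TGFB KO livers. A pseudocount of 1 gave 0 genes for the difference of effects. For IFNko TGFB1 KO against TGFB KO livers, a pseudocount of 64 gave 4 genes and only the compared groups gave 1. Fcgr3 was called there under the deposited scaling (-1.02, adjusted p = 0.03276), median centring (-1.24, adjusted p = 0.03812), the intensity trend, a 60th percentile filter, the mean of probe sets and a pseudocount of 64. No member's called value changed sign, 830 values kept their side of the threshold, 10 lost the call and 10 gained it, and the cause was not tested. Trem2 gave no value at the 60th percentile. The second Trem2 probe set was added after seeing the data.

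Median centring moved the median of all genes to -0.15 in IFNko TGFB1 KO against INFko TGFB+ livers, -0.25 in the difference of effects, -0.14 in IFNko TGFB1 KO against TGFB KO livers and 0.10 in INFko TGFB+ against WT livers. It called 1449 genes higher and 894 lower in TGFB KO against WT livers (1553 and 1524 with quantile normalization), 988 and 1866 in IFNko TGFB1 KO against INFko TGFB+ livers (1619 and 1673), 9 and 101 in the difference (31 and 80), and 100 and 388 in IFNko TGFB1 KO against TGFB KO livers (324 and 360). The difference of effects called 14 higher and 43 lower with a pseudocount of 1, 68 and 144 with 64, 61 and 112 with the trend; IFNko TGFB1 KO against TGFB KO livers gave 65 and 148 with only the compared groups. The replicate block gave 9, 9, 1, 2 and 0 members in the 5 comparisons and moved no call. Same-numbered deviations correlated between -0.077 and 0.343 over group pairs. For WT and TGFB KO livers they ran from 0.065 to 0.343, against -0.231 to 0.142 for unlike numbers. For INFko TGFB+ and IFNko TGFB1 KO livers the same-numbered values ran from -0.055 to 0.0. With so few arrays per group, these correlations cannot decide whether the numbers pair the mice. Dim signal near the added 16 limits Trem2 and the controls' Fcgr4.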
